A study of Mus musculus with 4 samples.

Results

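The DNA damage checkpoint of meiotic prophase was followed through 10 genes: the kinase genes Atm and Atr, their cofactors on damaged or unsynapsed chromatin Topbp1, Brca1, Mdc1 and H2afx, the relay kinase genes Chek1 and Chek2, and the transcription factor genes Trp53 and Trp63. They were taken from a list of symbols, with no threshold on their values, and all 10 were found among the 23980 genes of the expression table, each with an estimate in all 4 libraries. The libraries were polyA(+) RNA of leptotene/zygotene (L/Z) spermatocytes, germ cells in early meiotic prophase, which had been sorted by FACS from mice of 3 to 4 weeks. Mice of every genotype were hybrids of C57BL/6J and MSM/Ms: carriers from a line bred over generations onto MSM/Ms were mated with carriers on C57BL/6J. Pld6 KO lacked a nuclease that makes piRNAs, the small RNAs that guide silencing of retrotransposons, and Dnmt3L KO lacked a cofactor of the DNA methyltransferases that act in fetal male germ cells. The controls were a Pld6 wild type (Pld6 WT), from the line of the first mutant, and a Dnmt3L heterozygote (labelled Dnmt3L_Het), which belonged to the line of the second and carried 1 mutant allele. Each genotype had 1 library, and the sources used here do not say how many animals went into it.

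In leptotene, programmed DNA breaks activate ATM, which phosphorylates the histone H2AX in the chromatin around them. ATR then acts on single-stranded DNA and on chromosome axes that have not found a partner, helped by TOPBP1, BRCA1 and the γH2AX reader MDC1, and in pachytene the same proteins silence the sex chromosomes. CHK1 and CHK2 are the kinases that ATR and ATM activate, and p53 and its paralogue p63 are transcription factors that can lead a damaged cell to arrest or death. Germ cells of both mutants are lost in meiotic prophase, which is why the levels of these genes at the L/Z stage are a question for this material.

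The libraries held between 30439943 and 63875934 fragments assigned to genes. The targeted genes followed the labels. Pld6 was listed at 0.334 FPKM (fragments per length of transcript and per library depth) in Pld6 KO against 19.5 in Pld6 WT, and Dnmt3l had 0 fragments in Dnmt3L KO against 101 in the heterozygote, although this gene was low in every library (46 fragments in Pld6 WT). The 16 L/Z markers found had a median of 188 FPKM in Pld6 WT, 103 in Pld6 KO, 92.2 in the Dnmt3L heterozygote and 60.4 in Dnmt3L KO. The highest of them was Sycp3, an element of the chromosome axis, at 782, 431, 559 and 285 FPKM in the same order. Mei4 was the lowest, at 5.93, 3.47, 3.06 and 1.84 FPKM. The 4 libraries differed in what else they held. The summed level of 12 Sertoli cell markers was 143 FPKM in Pld6 WT, 396 in Pld6 KO, 4050 in the heterozygote and 5690 in Dnmt3L KO, and that of 14 spermatid markers was 218, 18.2, 7320 and 34.3 FPKM in the same order. In such bulk samples, fewer cells of a type and less RNA per cell cannot be told apart.

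Of the 2 apical kinases, Atr, the kinase of single-stranded DNA and unsynapsed axes, was the most abundant member in every library. It was listed at 191 FPKM in Pld6 WT, 88.6 in Pld6 KO, 62.8 in the Dnmt3L heterozygote and 63.6 in Dnmt3L KO. Pld6 WT thus stood far above the other three, and both Dnmt3L libraries were alike. Atm, the kinase of double-strand breaks, was listed at 40.6 FPKM in Pld6 WT, 35.3 in Pld6 KO, 13.2 in the heterozygote and 23.8 in Dnmt3L KO. Here both Pld6 libraries were high and the heterozygote was the lowest.

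The cofactors resembled the kinases in which control was the higher, with the exception of H2afx. Topbp1, the activator of ATR, was listed at 98.2 FPKM in Pld6 WT, 68.5 in Pld6 KO, 48.6 in the heterozygote and 54.4 in Dnmt3L KO. Brca1, needed for ATR to spread along unsynapsed axes, was listed at 26.4, 25.7, 9.99 and 13.3 FPKM in the same order of libraries. Mdc1, which carries the signal from the axes into the chromatin loops, was listed at 74.9, 43.6, 21.8 and 28.8 FPKM. All 3 were highest in Pld6 WT and lowest in the Dnmt3L heterozygote, with both mutants in between. H2afx, the histone gene, was the most even of the 10: 35.3 FPKM in Pld6 WT, 43.9 in Pld6 KO, 43.6 in the heterozygote and 37.0 in Dnmt3L KO. It also yields transcripts without a poly(A) tail, which a polyA(+) library does not measure.

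The relay kinase genes were expressed at lower levels. Chek1 was listed at 22.7 FPKM in Pld6 WT, 16.8 in Pld6 KO, 14.9 in the heterozygote and 14.4 in Dnmt3L KO. Chek2 was listed at 12.1, 10.5, 5.31 and 6.63 FPKM in the same order. For both, Pld6 WT was the highest library and both Dnmt3L libraries were the lowest.

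Trp53 had another order: 18.4 FPKM in Pld6 WT, 28.7 in the Dnmt3L heterozygote, 34.6 in Pld6 KO and 50.6 in Dnmt3L KO. It was the only member to lie above both controls in both mutants. Trp63 was barely detected, at 0.338 FPKM in Pld6 WT (58 fragments), 0.324 in Pld6 KO (46 fragments), 1.13 in the heterozygote (270 fragments) and 0.613 in Dnmt3L KO (130 fragments). Its higher levels were in the Dnmt3L line, and the 95% exact Poisson intervals of the controls, 0.257 to 0.437 and 1.0 to 1.28 FPKM, did not overlap. For the other members counting error was small. The fewest fragments behind any of their values were the 643 of Chek2 in Dnmt3L KO, with an interval of 6.13 to 7.17 FPKM. These intervals cover counting error only, and with 1 library per genotype the spread between animals is unknown for all the levels above.

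**Figure D1:**
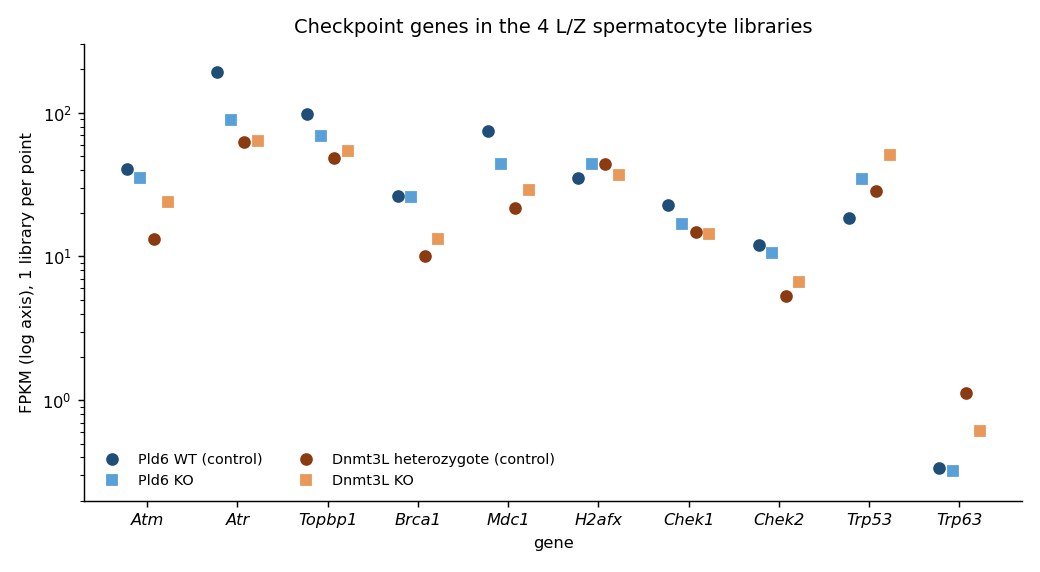
FPKM of each of the 10 checkpoint genes (log axis), 1 point per library, circles for the controls and squares for the mutants. Atr is the highest gene in every library (62.8 to 191 FPKM) and Trp63 the lowest (0.324 to 1.13 FPKM). Trp53 is the only gene whose mutants both lie above both controls.

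The genes lie on 5 chromosomes, and 5 of the 10 are on chromosome 9, which holds 5.62% of the table's genes with a position. In the RefSeq annotation of GRCm38.p6 (the files use mm10, the same build), these are Chek1 (chr9:36708482-36726658, minus strand), H2afx (chr9:44334715-44336077, plus strand, current symbol H2ax), Atm (chr9:53437122-53536828, minus strand), Atr (chr9:95857597-95953217, plus strand) and Topbp1 (chr9:103305167-103350428, plus strand). The others are Chek2 (chr5:110839800-110874140, plus strand), Trp53 (chr11:69580348-69591873, plus strand), Brca1 (chr11:101488761-101551955, minus strand), Trp63 (chr16:25683763-25892088, plus strand) and Mdc1 (chr17:35841495-35859670, plus strand). The 5 genes of chromosome 9 did not share an order of levels: Pld6 WT was the highest library for 4 of them, and H2afx was even. The gene span of Atr overlaps an antisense transcript, 1700065D16Rik, over 726 bases. That transcript was listed at 4.33 FPKM in Pld6 WT, 3.64 in Pld6 KO, 2.96 in the heterozygote and 0.221 in Dnmt3L KO, all far under Atr. The kit marked strand, but the strand setting of the counting is not given in the sources used here.

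The promoters of 4 members are shown because they belong to the genes with the widest range between libraries (Mdc1, Atr and Atm) and to the gene that stood above both controls in both mutants (Trp53). Each line gives the 250 bases before a RefSeq start in GRCm38.p6, 5′ to 3′ on the strand of the gene, with letters in capitals where 1 of 4 motifs matched on either strand. That start need not be the outermost one. By the spans above, the windows of Atm, Trp53 and Mdc1 reach into the annotated gene, and the match marked for Trp53 lies inside it. The windows of Topbp1 and Chek2, counted below, do so too.
Trp53 (chr11:69580109-69580358, plus strand): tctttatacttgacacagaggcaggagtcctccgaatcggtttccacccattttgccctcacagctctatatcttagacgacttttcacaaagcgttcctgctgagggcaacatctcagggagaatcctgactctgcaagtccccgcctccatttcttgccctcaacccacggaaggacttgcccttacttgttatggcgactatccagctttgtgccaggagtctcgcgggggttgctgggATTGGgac
Atr (chr9:95857347-95857596, plus strand): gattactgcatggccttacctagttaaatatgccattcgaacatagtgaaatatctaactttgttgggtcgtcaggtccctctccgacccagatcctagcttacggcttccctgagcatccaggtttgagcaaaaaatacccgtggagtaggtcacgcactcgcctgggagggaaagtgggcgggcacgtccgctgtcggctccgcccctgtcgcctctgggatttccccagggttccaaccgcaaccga
Atm (chr9:53536672-53536921, minus strand): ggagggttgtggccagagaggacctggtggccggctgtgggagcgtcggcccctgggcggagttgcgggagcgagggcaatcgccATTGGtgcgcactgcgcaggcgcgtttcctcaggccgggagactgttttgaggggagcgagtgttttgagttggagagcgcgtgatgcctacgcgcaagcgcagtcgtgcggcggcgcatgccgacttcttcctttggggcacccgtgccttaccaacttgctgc
Mdc1 (chr17:35841248-35841497, plus strand): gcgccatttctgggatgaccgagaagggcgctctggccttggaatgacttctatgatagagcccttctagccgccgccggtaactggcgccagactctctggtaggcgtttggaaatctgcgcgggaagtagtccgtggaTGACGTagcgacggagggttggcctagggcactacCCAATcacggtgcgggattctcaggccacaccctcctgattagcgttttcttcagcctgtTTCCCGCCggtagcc
The motifs were the CCAAT box (CCAAT, or ATTGG on the other strand), the core of the cAMP response element (TGACGT), an E2F-type site (GGCGGGAA, or TTCCCGCC on the other strand) and a STRA8-type site (CNCCTCAG). None contains another. Promoter sequences were found for 8 members. CCAAT was present in 5 of the 8 (Atm, Brca1, Chek2, Mdc1 and Trp53) and in 33.8% of all 32851 promoter windows of this length. TGACGT was present in 2 (Brca1 and Mdc1; 6.47% of all windows), the E2F-type site in Mdc1 alone (1.86%), and the STRA8-type site in none of the 8 (6.42%). Atr held none of the 4 motifs in this window. These matches describe letters, not bound sites, and the widest ranging members did not share 1 motif.

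To ask which members stood outside both controls, its FPKM + 1 had to exceed, or fall short of, both by a factor greater than 2. In both mutants 0 of the 10 members met this mark. Pld6 KO had 1.04% of the table's genes past it upwards and 5.41% downwards, and Dnmt3L KO had 2.14% upwards and 5.78% downwards. The change against the mean of the controls, on the log2(FPKM + 1) scale, ran from -0.51 (Atr) to 0.53 (Trp53) in Pld6 KO, with a median of 0.03 over the 10 against -0.05 over the 14416 genes with a mean FPKM of at least 1. In Dnmt3L KO it ran from -0.99 (Atr) to 1.07 (Trp53), with a median of -0.35 against -0.02. Trp53 in Dnmt3L KO exceeded the mean of the controls by more than 2-fold, but the higher control only 1.76-fold.

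With no minimum fold, 7 of the 10 lay between the controls in Pld6 KO, and 8 did in Dnmt3L KO. In Pld6 KO, Trp53 and H2afx lay above both controls and Trp63 below both, where 26.4% of all genes were above and 27.5% below. In Dnmt3L KO, Trp53 lay above both and Chek1 below both, where 29.1% of all genes were above and 28.6% below. Apart from Trp53, the gaps to the nearer control were narrow: H2afx was 1.01-fold over the heterozygote in Pld6 KO, Chek1 in Dnmt3L KO was 0.966 of the heterozygote, and Trp63 in Pld6 KO was 0.958 of Pld6 WT. Trp53 was 1.20-fold over the higher control in Pld6 KO.

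In edgeR's quasi-likelihood test on the fragments, in which the controls, unlike in line and genotype, gave the only residual degree of freedom, 0 of the 10 members had an adjusted p under 0.05, and 0 had an unadjusted p under 0.05, for Pld6 KO and for Dnmt3L KO alike. The share of all 18657 genes tested that passed was 0% in each. At an unadjusted p under 0.05, Pld6 KO had 102 of these genes on the high side and 1383 on the low side, and Dnmt3L KO had 203 and 1440. Trp53 in Dnmt3L KO had the lowest adjusted p among the members, 0.790 in edgeR, with a log2 fold change of 1.09. Atr in Dnmt3L KO had a log2 fold change of -1.02 and an adjusted p of 0.882 in edgeR. DESeq2, run on the same fragments, also passed 0 of the 10, while it passed 4.73% of the 20568 genes it tested in Pld6 KO and 4.55% in Dnmt3L KO. A permutation of 1 library against 2 could not give a two-sided exact p under 0.333.

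The widest differences of the members were between the controls. Of the 10, 6 were more than 2-fold lower in the Dnmt3L heterozygote than in Pld6 WT: Mdc1 (3.44-fold), Atm (3.09-fold), Atr (3.04-fold), Brca1 (2.64-fold), Chek2 (2.28-fold) and Topbp1 (2.02-fold, just past the threshold). Over all genes, 3.77% were this much lower in the heterozygote and 11.1% this much higher. The median difference was -1.03 over the members against 0.06 over genes with a mean FPKM of at least 1, on the log2(FPKM + 1) scale. Chek1 was 1.52-fold lower, whereas H2afx was 1.24-fold and Trp53 1.56-fold higher in the heterozygote. Trp63 was 3.35-fold higher in FPKM there, but its low level kept it under the threshold on the FPKM + 1 scale (0.67).

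This control difference moved with other measures of the same libraries. The L/Z spermatocyte markers, 16 of 17 found in the table, had a median difference of -1.0 there, and 8 of the 16 were more than 2-fold lower. All 12 Sertoli cell markers were more than 2-fold higher there, as were 10 of the 14 spermatid markers. Transcript length moved with it too. Among genes with a mean FPKM of at least 5, the median difference of the heterozygote from Pld6 WT went from 0.45 for transcripts of up to 1000 bases to -0.70 for those over 8000 bases. Atm (9819 bases) and Atr (8102) are in the longest class, Mdc1 (7335), Brca1 (6572), Trp63 (5366) and Topbp1 (5224) in the next, and H2afx (1384) is the shortest. After the median of its length class was taken off, the difference was -1.32 for Mdc1, -1.20 for Chek2, -0.91 for Brca1, -0.89 for Atr, -0.85 for Atm and -0.59 for Topbp1, so 2 of the 6 stayed beyond 2-fold. Trp63 came to 1.09, but its mean of 0.602 FPKM lies far below the 5 FPKM required of the genes behind the medians. The part of cell content and of transcript length in the difference was not tested.

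**Figure D2:**
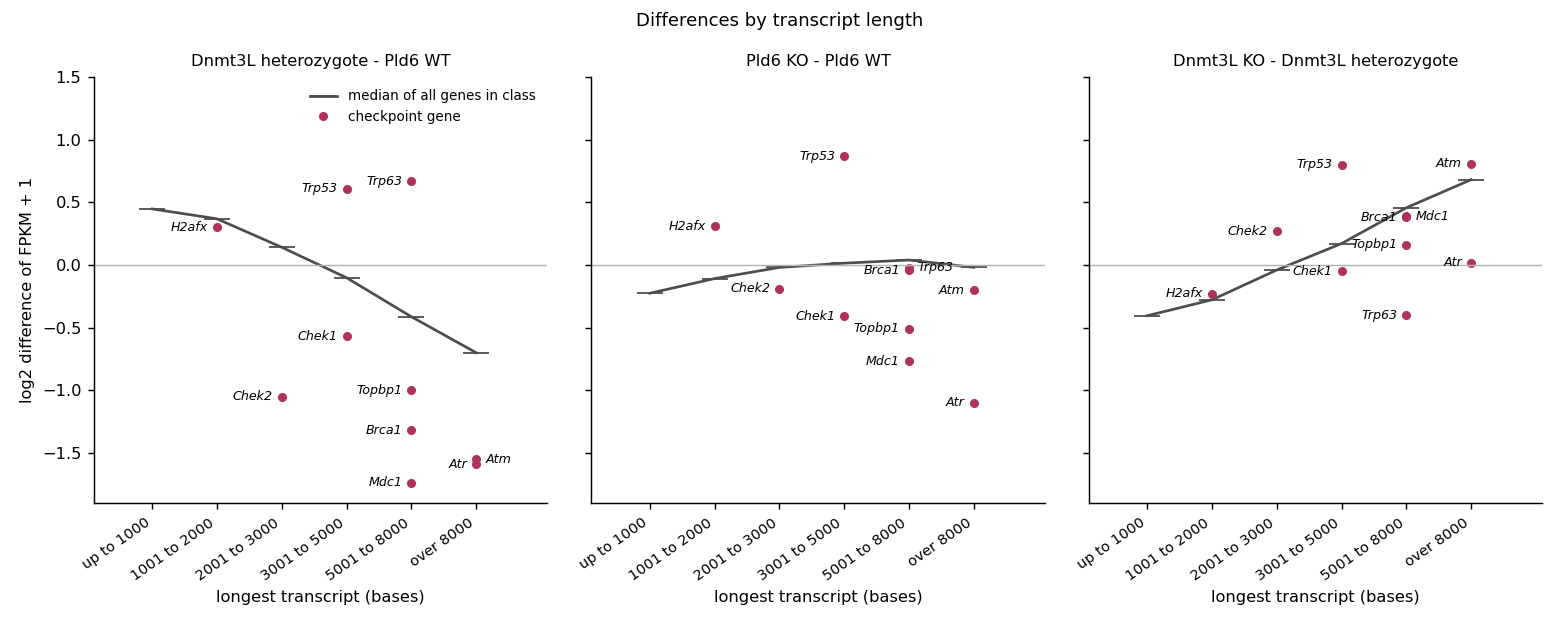
Log2 difference of FPKM + 1 (y axis) by class of longest annotated transcript (x axis, bases), for the controls and for each mutant against the control of its line. Dashes joined by a line are medians of all genes in the class with a mean FPKM of at least 5, and points are the checkpoint genes. Class medians run from 0.45 to -0.70 between the controls, from -0.40 to 0.68 in the Dnmt3L line, and from -0.23 to 0.04 in the Pld6 line.

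Because the controls differed, each mutant was also set against the control of its own line, a pair of comparisons that share no library and in which 1 library stands on each side, so that they are values without a test. In the Pld6 line, Atr was the only member more than 2-fold away: it was 2.16-fold lower in Pld6 KO (88.6 against 191 FPKM). Over all genes, 6.46% were this much lower and 4.69% this much higher. Mdc1 was 1.72-fold, Topbp1 1.43-fold and Chek1 1.35-fold lower in the mutant, while Atm (1.15-fold lower) and Brca1 (1.03-fold lower) were close to their control. Chek2 was 1.16-fold lower and H2afx 1.25-fold higher. Trp53 was 1.88-fold higher, the largest upward difference of the 10. The median over the members was -0.19 against 0.01 over genes with a mean FPKM of at least 1.

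In the Dnmt3L line no member was more than 2-fold away, where 8.22% of all genes were this much lower and 3.00% this much higher. Atm was 1.81-fold and Trp53 1.76-fold higher in the knockout than in the heterozygote. Brca1 was 1.33-fold, Mdc1 1.32-fold, Chek2 1.25-fold and Topbp1 1.12-fold higher. Atr (1.01-fold) and Chek1 (0.966 of the heterozygote) were level, H2afx was 1.18-fold lower, and Trp63 was 1.85-fold lower at its low level. The median over the members was 0.22 against 0.06. In this line too, long transcripts differed from short ones: class medians ran from -0.40 to 0.68. With them removed, Trp53 differed by 0.62, Chek2 by 0.31 and Atm by 0.13, whereas Brca1 (-0.07), Mdc1 (-0.07) and Topbp1 (-0.30) turned from higher to lower and Atr stood at -0.66. In the Pld6 line the same step hardly altered a value (Atr -1.08, Trp53 0.86).

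**Figure D3:**
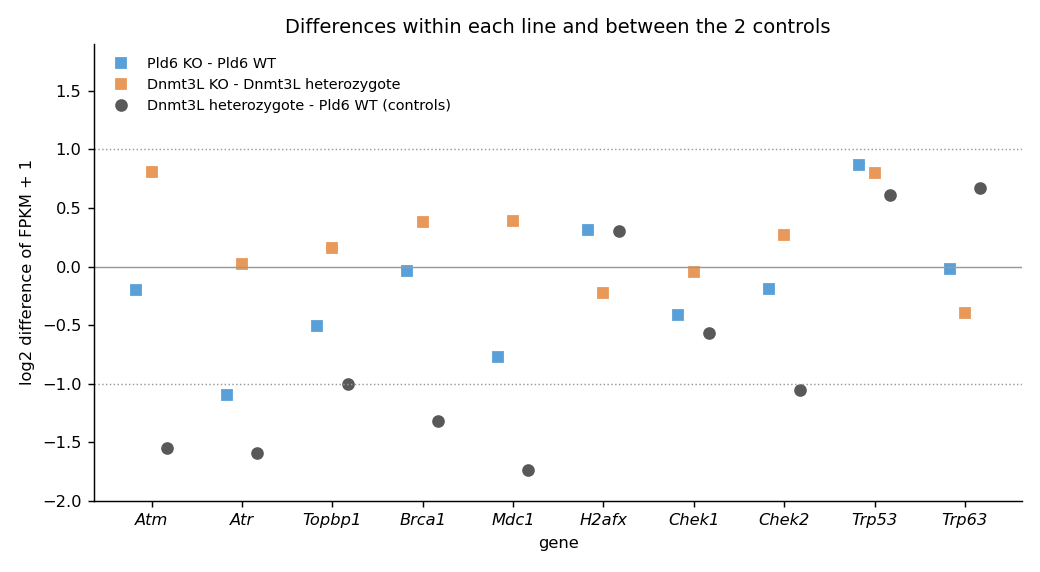
Log2 difference of FPKM + 1 for each checkpoint gene: squares for each mutant against the control of its line, circles for the Dnmt3L heterozygote against Pld6 WT. Dotted lines mark 2-fold. Of the circles, 6 lie beyond 2-fold, Atr is the only gene with a square beyond it (-1.10), and Trp53 alone has both squares above 0 (0.87 and 0.80).

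Trp53 was the only member higher than the control of its line in both mutants, by 0.87 and 0.80 on the log2(FPKM + 1) scale. Among the 14416 genes with a mean FPKM of at least 1, 244 (1.69%) were at least this much higher in both lines. Markers of some other cells were higher in both lines as well. All 7 macrophage markers found, of 8 listed, were higher in each mutant than in the control of its line (summed FPKM 68.6 against 22.0 in the Pld6 line, 152 against 77.2 in the Dnmt3L line), and so were 11 of the 12 Sertoli cell markers in Pld6 KO (all but Amh) and all 12 in Dnmt3L KO. None of these markers was at 0 in any library. Leydig cell markers (6 of 6) and peritubular and vascular markers (7 of 7) were higher in Pld6 KO, but 4 of 6 and 6 of 7 were lower in Dnmt3L KO. The L/Z markers were lower in both, 15 of 16 in each line, as were the pachytene markers (12 of 12 in Pld6 KO and 11 of 12 in Dnmt3L KO) and all 14 spermatid markers. The 13 spermatogonium markers, of earlier germ cells, were mixed. In Pld6 KO, 7 exceeded Pld6 WT and 6 fell under it, with a median difference of 0.13. In Dnmt3L KO, 10 exceeded the heterozygote and 3 fell under it, with a median difference of 0.34. Set against both controls by the 2-fold rule, 3 of the 13 stood above and 0 below in Pld6 KO. For Dnmt3L KO, 1 stood above and 2 below. The part of any of these cell types in the level of Trp53 was not tested.

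With every library scaled to the geometric mean of its L/Z markers (127 FPKM in Pld6 WT, 76.2 in Pld6 KO, 68.8 in the heterozygote and 44.1 in Dnmt3L KO), log2 ratios within the Pld6 line are raised by 0.74 and those within the Dnmt3L line by 0.64, and the median of genes with a mean FPKM of at least 1 then stood at 0.65 in both. Atr stood at 119 scaled FPKM in Pld6 WT and 92.0 in Pld6 KO, a difference of -0.37 that no longer passed 2-fold, and at 72.2 in the heterozygote and 114 in Dnmt3L KO. Trp53 differed by 1.57 in the Pld6 line and 1.43 in the Dnmt3L line. Relative to the median of those genes, Trp53 stood at 0.92 and 0.78 and Atr at -1.01 and 0.00 in the Pld6 and Dnmt3L lines.

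The partners and targets of the members, 68 genes in 6 lists, were described by the same rule. None stood beyond 2-fold of both controls in Pld6 KO, none did in Dnmt3L KO, and none of the 68 passed edgeR's test (lowest adjusted p = 0.888 and 0.680). Over all genes, 1.04% were this far above and 5.41% this far below both controls in Pld6 KO, and 2.14% and 5.78% in Dnmt3L KO. The median change of the 68 against the controls was 0.03 and -0.26, near those of the members. The count rested on both controls. Without Pld6 WT, 5 p53 targets (Cdkn1a, Fas, Sesn1, Sesn2 and Ddit4) were lower in Pld6 KO, where 13.4% of all genes were. Clspn, Timeless, Cdc25b, Wee1, Plk1 and Scml2, from other lists, were then higher in Pld6 KO, where 5.55% of all genes were. Without the heterozygote, 5 p53 targets (Cdkn1a, Sesn1, Sesn2, Btg2 and Ddit4) were higher in Dnmt3L KO, where 12.1% were. Hus1b, Cdc25c, Plk1, Hormad1 and Hormad2 were then lower in Dnmt3L KO, where 8.75% were. Against the control of the line, none of the 68 was 2-fold away in the Pld6 line, and 2 were higher and 1 lower in the Dnmt3L line. The shares over all genes were 4.69% higher and 6.46% lower in the Pld6 line and 3.00% higher and 8.22% lower in the Dnmt3L line. Those 3 were the polo-like kinase gene Plk3 (1.38 FPKM in the heterozygote, 5.04 in Dnmt3L KO), the p53 inhibitor gene Mdm4 (12.8 and 27.8) and the death receptor gene Fas (2.07 and 0.476), named after their values were seen.

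Of the 15 partners in the ATM arm, 4 were higher and 11 lower than the control of the line in Pld6 KO, and 11 were higher and 4 lower in Dnmt3L KO. The list medians were -0.09 and 0.19, against 0.01 and 0.06 over genes with a mean FPKM of at least 1. Counts of direction, here and for the lists below, include very small differences and have no share over all genes beside them. Mre11a and Rad50, which with Nbn form the sensor of broken ends, were listed at 35.4 and 31.5 FPKM in Pld6 WT, 37.7 and 28.6 in Pld6 KO, 19.4 and 14.8 in the heterozygote, and 22.7 and 21.8 in Dnmt3L KO. Nbn was listed at 26.1, 24.5, 20.8 and 16.9 FPKM in the same order. Bard1, the obligate partner of BRCA1, was listed at 14.5 FPKM in both Pld6 libraries, 7.29 in the heterozygote and 7.32 in Dnmt3L KO. It differed between the lines and was level within each.

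The 15 genes of the ATR arm were lower than the control of the line in 12 cases for the Pld6 line and 10 for the Dnmt3L line, with medians of -0.25 and -0.11. The 9-1-1 clamp loads TOPBP1 at damaged DNA and has somatic and germ line forms. Its subunit genes Rad9a (20.2 FPKM in Pld6 WT, 24.4 in Pld6 KO, 19.2 in the heterozygote, 19.5 in Dnmt3L KO) and Hus1 (8.85, 6.90, 4.49 and 5.40) were set beside their testis-enriched paralogues. Rad9b was listed at 38.7, 25.5, 24.6 and 23.6 FPKM, and Hus1b at 9.96, 8.24, 6.29 and 3.41 FPKM. Against the control of the line, Rad9b differed by -0.58 in Pld6 KO and by only -0.06 in Dnmt3L KO, and Hus1b by -0.25 and -0.73. Rad9a differed by 0.26 and 0.02, and Hus1 by -0.32 and 0.22, in the same order.

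HORMAD1 and HORMAD2 bind unsynapsed axes and recruit ATR. Hormad1 was listed at 305 FPKM in Pld6 WT, 194 in Pld6 KO, 238 in the heterozygote and 129 in Dnmt3L KO, and Hormad2 at 48.8, 27.8, 28.9 and 16.8 FPKM. Both genes were below both controls in both mutants without reaching 2-fold beyond both, and differed from the control of the line by -0.65 and -0.79 in Pld6 KO and by -0.88 and -0.75 in Dnmt3L KO (log2 of FPKM + 1). In Pld6 KO they were lower together with Atr, whereas in Dnmt3L KO Atr was level with its control. With the median of its length class removed, however, Atr stood at -1.08 in the Pld6 line and -0.66 in the Dnmt3L line. That step was not applied to the values of Hormad1 and Hormad2, so the adjusted values of Atr are not on a par with them. Also without that step, the L/Z markers had a median of -0.69 in the Pld6 line and -0.50 in the Dnmt3L line.

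The 19 p53 targets were split, with 10 higher and 9 lower than the control of the line in each mutant and a median of 0.05 and 0.01, although Trp53 itself was higher in both. Cdkn1a, the cell cycle inhibitor p21 and a classical target, was listed at 2.86 FPKM in Pld6 WT, 3.69 in Pld6 KO, 12.8 in the heterozygote and 8.22 in Dnmt3L KO, so it followed the line and not the genotype. Mdm2, the ubiquitin ligase that is both target and inhibitor of p53, was listed at 47.3, 39.3, 33.8 and 32.4 FPKM and was not above its control in either mutant. Btg2, an antiproliferative target named after its values were seen, was listed at 15.1, 31.1, 23.0 and 42.9 FPKM, the one target with differences as large as those of Trp53 in both lines (0.99 and 0.87). Trp73, the third gene of the family, was listed at 0.0972 to 0.251 FPKM, lower than Trp63 in each library.

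**Figure D4:**
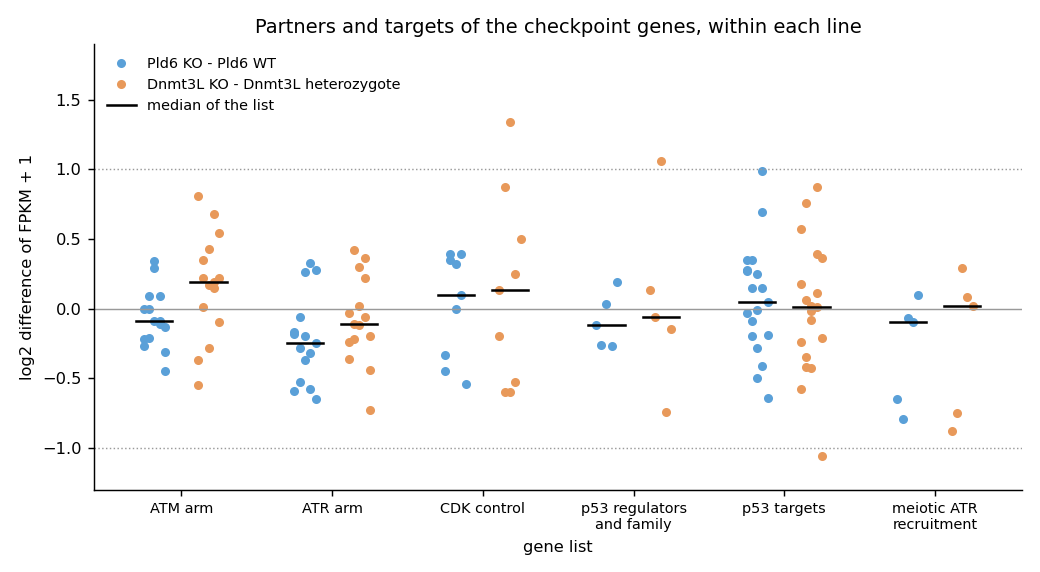
Log2 difference of FPKM + 1 of each mutant against the control of its line for 68 partner and target genes in 6 lists, 1 point per gene, with black bars for list medians and dotted lines at 2-fold. No gene lies beyond 2-fold in the Pld6 line, and 3 do in the Dnmt3L line (Plk3, Mdm4 and Fas).

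The genes whose profile over the 4 libraries was most like that of a member were sought for the members of widest range, by the distance between centred log2(FPKM + 1) profiles among 10612 genes with a mean FPKM of at least 5. Nearest to Mdc1 were Depdc5 (distance 0.0550), Alms1 (0.108) and Alg13 (0.235). Depdc5 was listed at 50.8 FPKM in Pld6 WT, 28.4 in Pld6 KO, 14.8 in the heterozygote and 19.0 in Dnmt3L KO. Nearest to Atm were Polq, a polymerase of end joining (0.0882), Cep192 (0.0921) and Dmxl2 (0.0967), all with transcripts over 8000 bases like Atm itself. Nearest to Atr were 3 genes of the X chromosome, Gm15114 (0.167), Gm15097 (0.190) and Magea4 (0.192), with far shorter transcripts of 948 to 2029 bases. Gm15114 was listed at 31.1, 16.5, 10.5 and 11.2 FPKM in the order used above. With 4 libraries, such likeness is a description.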

How the data were processed

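PolyA(+) RNA of sorted L/Z spermatocytes was sequenced as single reads of 50 bases from TruSeq stranded libraries, 1 per genotype. Per the labels, the authors used TopHat and Cuffdiff with mm10, and versions are not given in the sources used here. The deposited table held, per gene and library, FPKM values (rescaled between libraries by Cuffdiff) and estimated counts of fragments, 97.3% to 97.4% of them whole within 1e-06. Of its values, 31 were marked failed, none in a member.

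The members and gene lists were chosen with earlier results of these data known. Named were the members, any list gene counted as higher or lower (at most 4 per list), 13 known partners or paralogues, the 3 nearest profiles of the 3 members of widest range, and the targeted genes. Changes were log2 of FPKM + 1 in the mutant over the mean of both controls. edgeR 4.0.16 (quasi-likelihood, TMM, filterByExpr, Benjamini-Hochberg at 0.05) was fitted to rounded estimated counts of all 4 libraries in 3 groups, with R 4.3.3, and DESeq2 1.42.0 was the alternative. The study's test, Cuffdiff, was not run. The edgeR fit and the 2-fold rule were tested on simulated data. Transcript lengths, for 94.6% of genes, were the longest in GENCODE M21. The strand setting of the counting and the treatment of reads with several matches are not given, which bears on H2afx, a member of a histone family, and on the Magea genes. Total fragments per library were 40541149 (Pld6 WT), 30439943 (Pld6 KO), 63875934 (Dnmt3L heterozygote) and 49932330 (Dnmt3L KO). Alternatives changed the pseudocount, filter, threshold, scaling, control and test.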

Additional observations from a re-analysis of the deposited data

Results flagged for a closer look

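Of the members, 7 had differences of opposite sign in the 2 lines, although Atr was level in the Dnmt3L line and Brca1 nearly so in the Pld6 line. The count has no share over all genes beside it. Whether the lines differ was not tested, since each had 1 library per genotype. On the log2(FPKM + 1) scale, the difference in the Dnmt3L line exceeded that in the Pld6 line by 1.16 for Mdc1 (0.39 against -0.77), by 1.12 for Atr (0.02 against -1.10), by 1.01 for Atm (0.81 against -0.20), by 0.67 for Topbp1 (0.16 against -0.51), by 0.47 for Chek2 (0.27 against -0.19) and by 0.42 for Brca1 (0.38 against -0.04). For H2afx, the shortest of the 10, it came to -0.54 (-0.23 against 0.31). List medians also had opposite signs for the ATM arm, by 0.28 (0.19 against -0.09), and for meiotic ATR recruitment and silencing, by 0.12 (0.02 against -0.10). Class medians of transcripts over 8000 bases stood at 0.68 in the Dnmt3L line and -0.02 in the Pld6 line. With the median of the length class removed, only Atm (0.13 against -0.18) and Chek2 (0.31 against -0.17) kept opposite directions. Atr (-0.66 against -1.08), Topbp1 (-0.30 against -0.55), Brca1 (-0.07 against -0.08), Mdc1 (-0.07 against -0.81) and H2afx (0.05 against 0.42) then had the same direction in both lines.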

How the results depend on the processing

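The count of members higher or lower was 0 in both mutants under most alternatives. In Dnmt3L KO, 1 member (Trp53) was higher at a 1.5-fold threshold, where 7.13% of all genes were, and 1 (Trp53) under L/Z marker scaling, where 16% were. That scaling raised all genes: the median change of the members went from -0.35 to 0.72 and that of genes with a mean FPKM of at least 1 from -0.02 to 0.94. Without 1 of the controls, which left values without a test, members higher ranged from 0 to 2 in Pld6 KO (Atm and Brca1 without Pld6 WT, 5.55% of all genes) and from 0 to 1 in Dnmt3L KO (Trp53 without the heterozygote, 12.1%). Members lower ranged from 0 to 1 in Pld6 KO (Atr, 6.46% of all genes) and from 0 to 2 in Dnmt3L KO (Atr and Mdc1, 8.75%), each time without the heterozygote. The median change in Dnmt3L KO then ranged from -0.76 to 0.22. With length class medians removed, an alternative chosen after seeing the data, the count stayed at 0. No member passed DESeq2 or edgeR with RLE normalization or without the filter, although over all genes DESeq2 called 972 (Pld6 KO) and 936 (Dnmt3L KO), and edgeR without the filter called 437 and 429, against 0 in each as reported. Among the values for single members and lists, 430 kept their count or moved by less than the spread of the controls, and 44 moved further. That spread is set by the difference between the controls, so leaving 1 of them out could hardly move a single member further. Without Pld6 WT, Atr in Pld6 KO went from -0.51 to 0.49 and Mdc1 in Dnmt3L KO from -0.73 to 0.39, changes of sign that are among the 430. A line term was not run, since it would leave no residual degrees of freedom. No paired analysis was possible because the labels give no replicate numbers and each line holds 1 library per genotype. Counting depth limits Trp63 alone.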
